A study of Mus musculus with 6 samples.

Results

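The aortic valves of newborn mice at postnatal day 2 (PND2) and of mice aged 4 months were compared for 10 genes that mark or feed macrophages resident in tissue. The genes are Csf1, Csf1r, Adgre1, Cd68, Lyve1, Mrc1, Cd163, Timd4, Folr2 and Retnla. Members were taken by gene symbol from the table of annotated genes, and all 10 were found among its 46983 genes. The valves came from wild type C57BL/6J mice, with no treatment and no other allele in either group. Each age had 3 biological replicates, and each library was made from valves of 5 to 6 animals pooled together, so the spread between libraries is a spread between pools. Values are RPKM (reads per kilobase of exon, scaled to the depth of the library), and the library totals recovered from them ran from 23810507 to 38994657 reads. Adult replicate 2 stood apart by its adipocyte genes, whose summed level was 1306 RPKM there and 304 to 322 RPKM in the other adult libraries. The 10 genes ask how the macrophage transcripts of a valve that is still growing differ from those of an adult valve.

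Tissue macrophages depend on CSF1R, a receptor tyrosine kinase that is bound by CSF1 and by IL-34 and that keeps these cells alive. Stromal and endothelial cells are common sources of CSF1, whereas CSF1R is largely restricted to macrophages and related cells. ADGRE1, known as F4/80, and CD68, a lysosomal glycoprotein, are found on most mouse macrophages. LYVE1 binds hyaluronan, the mannose receptor MRC1 takes up glycoproteins, CD163 takes up hemoglobin bound to haptoglobin, TIMD4 binds phosphatidylserine on dying cells, and FOLR2 is a folate receptor. In heart and other organs, expression of these receptors is used to recognise long-lived resident macrophages. RELM alpha, the secreted product of Retnla, is induced by IL-4 through STAT6 and is also known from adipose tissue. Lymphatic endothelium is a further well known site of Lyve1.

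Of the 10 genes, 8 rose between PND2 and 4 months and none fell, while Lyve1 and Mrc1 did not pass the test. Calls are from limma on log2(RPKM + 0.1) fitted across 25903 genes, with a Benjamini-Hochberg adjusted p under 0.05. At an unadjusted p under 0.05 limma gave 9 higher and 1 lower (Lyve1), and voom on recovered reads called 9 higher and 0 lower. Over all genes tested 14.7% were called higher and 21.1% lower at 4 months. The median log2 fold change of the 10 was 1.25, against -0.14 for all genes tested. In 9 of the 10 every 4 month library was above every PND2 library, as were 20.0% of all genes tested. The same 8 genes were called without adult replicate 2. Csf1, Csf1r, Adgre1 and Cd68 were about doubled, Cd163 and Folr2 rose several-fold, and Timd4 and Retnla went from a few reads to clear expression. In whole valves, more cells of a type and more RNA per cell cannot be told apart, and this holds for every member.

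**Figure D1:**
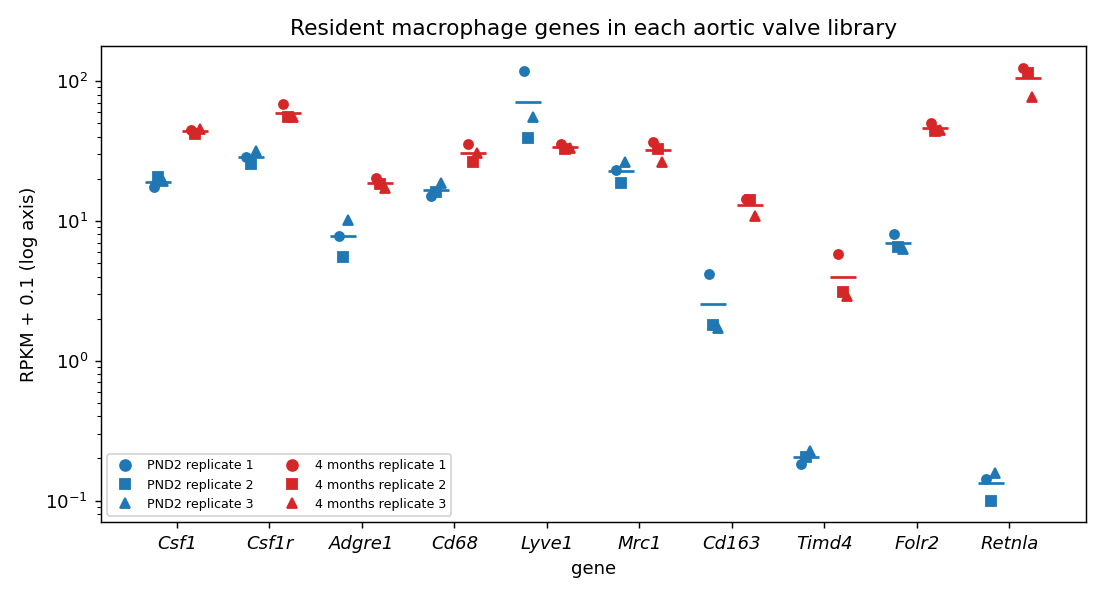
RPKM + 0.1 (log axis) of each of the 10 genes in the 6 libraries, with PND2 in blue and 4 months in red and a bar at the mean of each age. The 4 month libraries lie above the PND2 libraries for 9 genes and below them for Lyve1, with Mrc1 separated by a margin too small to see, and Retnla spans the widest range.

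The stretches before the start of Retnla and of Timd4, the members with the lowest levels at PND2, are shown here because the regulators searched for are those best known from macrophage genes. Sequences are from RefSeq for GRCm38.p6, the assembly also called mm10. Capitals mark matches on either strand to the PU.1 core GAGGAA, to the STAT6 palindrome TTCNNNNGAA or to TGCTGAC. The last is only a part of the T-MARE site, which basic leucine zipper proteins bind. The Retnla stretch is chr16:48842359-48842551 on the + strand and ends before the deposited gene start, and the Timd4 stretch is chr11:46810549-46810798 on the + strand.
Retnla: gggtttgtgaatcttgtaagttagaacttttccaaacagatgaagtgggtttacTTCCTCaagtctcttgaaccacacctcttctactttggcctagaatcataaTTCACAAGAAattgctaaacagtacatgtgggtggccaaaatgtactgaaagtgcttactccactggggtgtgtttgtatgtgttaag
Timd4: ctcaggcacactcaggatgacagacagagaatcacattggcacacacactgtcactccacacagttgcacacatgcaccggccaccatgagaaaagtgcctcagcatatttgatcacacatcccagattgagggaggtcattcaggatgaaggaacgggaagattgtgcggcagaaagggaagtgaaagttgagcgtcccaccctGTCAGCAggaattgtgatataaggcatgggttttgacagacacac

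A window of 250 bases before the RefSeq start was searched for 7 of the members, namely Csf1, Cd68, Mrc1, Cd163, Timd4, Folr2 and Retnla. Retnla held a STAT6 palindrome 145 bases before its RefSeq start and a PU.1 core at 196 bases. A match to TGCTGAC, the part of the T-MARE site searched for, lay on the reverse strand 48 bases before the start of Retnla. In Timd4 such a match lay 45 bases before the start. In the case of Retnla this match falls within the first exon of the deposited annotation, and so is not in the stretch printed. The start of that exon lies 57 bases upstream of the RefSeq one. That exon was at 17.0, 2.73 and 3.59 RPKM at 4 months, against 167, 140 and 99.8 RPKM in the next exon. TGCTGAC was found in 2 of the 7 windows and in 3.81% of the 32851 windows of the whole table. The STAT6 palindrome was in 1 of the 7 and in 5.85% of all windows. The PU.1 core was in Cd68, in Retnla and, with 3 matches, in Mrc1, and in 23.3% of all windows. A match describes the letters only.

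Csf1, the ligand, rose 2.31-fold. The gene is ENSMUSG00000014599 at chr3:107741048-107760469 (mm10). Its level was 17.3, 20.4 and 19.2 RPKM in the PND2 libraries and 44.4, 42.0 and 45.1 RPKM at 4 months. Both ages were tightly grouped, and the lowest adult library was above the highest PND2 library by more than the spread of either group. The log2 fold change was 1.21 ± 0.098 (SE, n = 3 per age; limma adjusted p = 0.000221).

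Csf1r, the receptor of that ligand, changed by nearly the same factor. It is ENSMUSG00000024621 at chr18:61105572-61132149. The PND2 libraries gave 28.6, 25.4 and 31.6 RPKM and those at 4 months 68.1, 55.0 and 55.2 RPKM. The ages did not overlap, and adult replicate 1 was the highest. The log2 fold change was 1.05 ± 0.127 (SE; limma adjusted p = 0.00104). The gene shares exon sequence with Hmgxb3 on the opposite strand, whose mean was 14.6 RPKM at PND2 and 10.7 RPKM at 4 months. Whether strand was used in counting is not given in the sources used here. The long last exon of Csf1r (chr18:61130304-61132149) had the smallest rise of its tested exons, 0.89. The shorter version of that exon (chr18:61130304-61131134) rose by 1.30. The part of Hmgxb3 reads in the level of Csf1r was not tested.

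Il34, the other ligand of the receptor, was low at both ages. Its level was 1.47, 0.786 and 0.837 RPKM at PND2 and 1.91, 3.13 and 3.09 RPKM at 4 months, a log2 fold change of 1.33 ± 0.32 (SE; limma adjusted p = 0.0173). Csf1 was thus the more abundant ligand transcript, per length, in all 6 libraries.

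Adgre1 and Cd68, the pan-macrophage genes, gave 2.402-fold and 1.86-fold higher means at 4 months. Adgre1 (ENSMUSG00000004730, chr17:57358686-57483529) was at 7.65, 5.41 and 10.03 RPKM at PND2 and at 20.2, 18.2 and 17.0 RPKM at 4 months. PND2 replicate 2 was the lowest and replicate 3 the highest of that age, and all 3 were below the adult libraries. Its log2 fold change was 1.29 ± 0.219 (SE; limma adjusted p = 0.00403). Under the unequal-variance test that the study's methods describe, Adgre1 no longer passed, with an adjusted p of 0.100 beside the limma value.

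Cd68 (ENSMUSG00000018774, chr11:69664213-69666153) was at 14.9, 15.9 and 18.7 RPKM at PND2 and at 35.2, 26.2 and 30.7 RPKM at 4 months. Adult replicate 1 was again the highest library and the ages did not overlap, with a log2 fold change of 0.89 ± 0.143 (SE; limma adjusted p = 0.00328).

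Folr2 showed the cleanest separation of the receptors. The gene (ENSMUSG00000032725, chr7:101839990-101845331) gave 7.91, 6.41 and 6.18 RPKM at PND2 and 50.2, 44.1 and 44.3 RPKM at 4 months. The means differed 6.76-fold, while the libraries of an age lay close together. On the log2 scale the change was 2.75 ± 0.128 (SE; limma adjusted p = 3.09e-05).

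Cd163, the hemoglobin-haptoglobin receptor, rose 5.30-fold. The gene (ENSMUSG00000008845, chr6:124304656-124330527) gave 4.04, 1.70 and 1.61 RPKM at PND2 and 14.1, 14.02 and 10.8 RPKM at 4 months. PND2 replicate 1 was more than double the other PND2 libraries and still below every adult library. Its log2 fold change was 2.47 ± 0.344 (SE; limma adjusted p = 0.00186). With the unequal-variance test the adjusted p was 0.0821.

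Timd4, the phosphatidylserine receptor, was close to absent at PND2. The gene (ENSMUSG00000055546, chr11:46810800-46844332) had 7, 7 and 8 reads in the PND2 libraries and 466, 156 and 176 reads at 4 months. In RPKM these were 0.0826, 0.106 and 0.126 against 5.74, 3.02 and 2.80. Adult replicate 1 was about double the other adult libraries, and all 3 stood far above PND2. Over the pooled reads the ratio of the ages was 39.8, with an exact 95% interval of 26.1 to 63.8 that covers counting error only. The fitted log2 fold change of 4.20 ± 0.347 (SE; limma adjusted p = 0.000229) understates the change because of the pseudocount, and Timd4 remained the lowest of the 10 at 4 months.

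Retnla went from the least to the most abundant of the 10. The gene (ENSMUSG00000061100, chr16:48842552-48844461), in whose upstream stretch the STAT6 palindrome was shown above, had 1, 0 and 1 reads at PND2 and 2785, 1631 and 1326 reads at 4 months. The adult levels were 125, 115 and 76.6 RPKM, against 0.0429, 0 and 0.0571 RPKM. A PND2 level that rests on 2 reads in all does not fix a fold: the ratio over pooled reads was 3147, and its exact 95% interval for counting error ran from 871 to 25994. The fit gave a log2 fold change of 9.62 ± 0.265 (SE; limma adjusted p = 6.11e-06), a size that depends on the pseudocount.

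Mrc1, the mannose receptor, did not pass the test. The gene (ENSMUSG00000026712, chr2:14229392-14332057) gave 23.1, 18.7 and 26.4 RPKM at PND2 and 36.4, 32.7 and 26.5 RPKM at 4 months. The highest PND2 library and the lowest adult library were level to within 0.1 RPKM. Its log2 fold change was 0.49 ± 0.168 (SE; limma adjusted p = 0.0585). It passed when each library was scaled by its median (0.0220), after quantile normalization (0.0355), with voom on recovered reads (0.0301) and without adult replicate 3 (0.0448).

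Lyve1 was the only member with a lower mean at 4 months, and it did not pass either. The gene (ENSMUSG00000030787, chr7:110850607-110862953) gave 119, 39.3 and 55.0 RPKM at PND2 and 35.3, 32.4 and 33.4 RPKM at 4 months. The adult libraries were nearly equal, whereas PND2 replicate 1 was more than double the other PND2 libraries. The log2 fold change was -0.91 ± 0.358 (SE; limma adjusted p = 0.0866). It was -0.46 without PND2 replicate 1 (adjusted p = 0.0628), and -1.26 without PND2 replicate 2, where the gene passed (adjusted p = 0.0242).

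Lymphatic endothelial genes were also lower at 4 months. Of the 6 genes of that list, 5 fell and Pdpn (-0.06) did not pass, and the list's summed level was 431 to 875 RPKM at PND2 and 265 to 374 RPKM at 4 months. Mmrn1, which encodes a multimerin of endothelial cells, was at 62.6, 24.4 and 40.0 RPKM at PND2 and at 18.04, 16.0 and 19.5 RPKM at 4 months. Reln, the secreted glycoprotein reelin, was at 9.04, 4.38 and 7.75 RPKM at PND2 and near 1 RPKM at 4 months. In these genes and in Flt4 the PND2 libraries stood in the same order as for Lyve1, replicate 1 highest and replicate 2 lowest. The other 3 genes differed from that order: Prox1 and Ccl21a were highest in replicate 3 (30.3 and 744 RPKM), and Pdpn was lowest there (23.6 RPKM). Nor was the order particular to lymphatic genes. Macrophage genes such as C1qa, Ctss and Cx3cr1 had it too, whereas others, such as Aif1 and Laptm5, did not. Prox1, the transcription factor that defines lymphatic identity and is also found in valve endothelium and heart muscle, fell by 1.86 on the log2 scale, Flt4 by 1.02 and the chemokine gene Ccl21a by 1.12. Each of the 6 had reads at both ages. All 6 blood endothelial genes (Pecam1, Cdh5, Kdr, Tie1, Emcn and Vwf) fell as well, with a median of -1.18, and their sum went from 338 to 467 RPKM at PND2 to 194 to 205 RPKM at 4 months. The part of these cells in the level of Lyve1 was not tested.

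**Figure D2:**
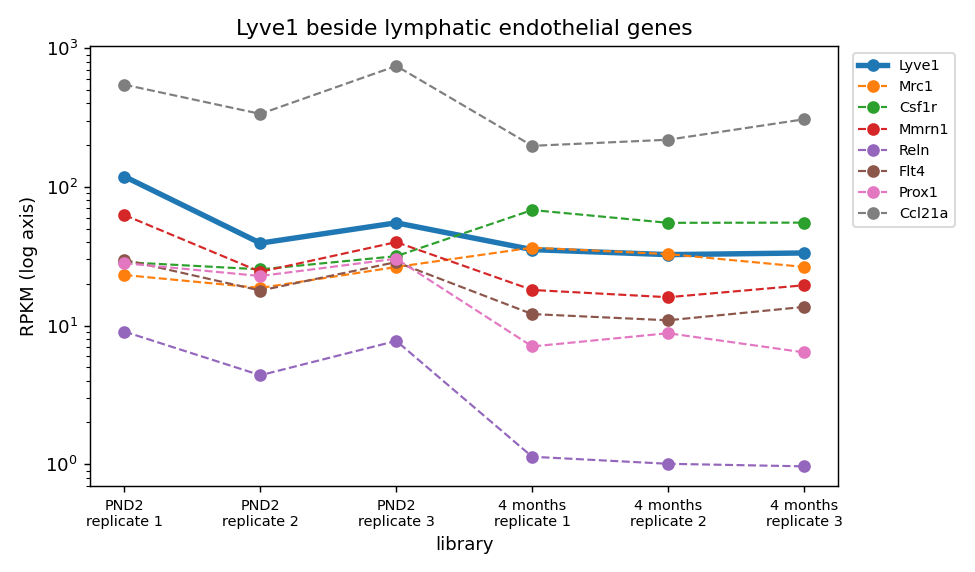
RPKM (log axis) of Lyve1 (thick line), of the lymphatic genes Mmrn1, Reln, Flt4, Prox1 and Ccl21a, and of Mrc1 and Csf1r in each library; lines join the values of a gene and carry no order. Lyve1 has its peak in PND2 replicate 1, as Mmrn1, Reln and Flt4 do, Prox1 and Ccl21a peak in PND2 replicate 3, and Csf1r has its highest values at 4 months.

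The order of the 10 genes by level differed between the ages. At PND2 Lyve1 led with a mean of 71.0 ± 42.1 RPKM (SD, n = 3), and Csf1r, Mrc1, Csf1 and Cd68 followed, each overlapping the next in its range of libraries. Adgre1 and Folr2 overlapped as well, and Cd163, Timd4 and Retnla came last and apart. At 4 months Retnla led with 105 ± 25.3 RPKM, followed by Csf1r with 59.4 ± 7.47 RPKM. Folr2, seventh at PND2, came next with 46.2 ± 3.50 RPKM and overlapped Csf1 at 43.8 ± 1.64 RPKM. Lyve1, Mrc1 and Cd68 overlapped one another between 26.2 and 36.4 RPKM, and Adgre1, Cd163 and Timd4 were lower and separate.

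To ask whether the receptors moved with macrophage transcripts in general, each member was set against 20 general macrophage genes of the same library. Of these 20 genes 16 rose, 1 fell and 3 did not pass, and their median log2 fold change was 1.03. Lysozyme Lyz2 rose by 2.30, the endotoxin co-receptor Cd14 by 2.14 and the efferocytosis receptor Mertk by 1.32. The fractalkine receptor Cx3cr1 was the gene that went against the rest, at 15.1, 11.7 and 14.1 RPKM at PND2 and 10.7, 8.53 and 7.04 RPKM at 4 months (log2 fold change -0.65 ± 0.18 SE; limma adjusted p = 0.0301). The complement genes C1qa, C1qb and C1qc rose by 1.00 to 1.28, and C1qa was at 63.9 to 76.2 RPKM at PND2 and at 143 to 192 RPKM at 4 months, so macrophage transcripts were present in every library.

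Relative to the mean log2(RPKM + 0.1) of those genes, Csf1r was level, with a difference of 0.01 between the ages, and Csf1 (0.16), Adgre1 (0.25) and Cd68 (-0.15) overlapped between the ages. For 4 members every adult library was above every PND2 library. The difference was 1.43 for Cd163, 1.71 for Folr2, 3.16 for Timd4 and 8.58 for Retnla. With a pseudocount of 1 it was 1.15 for Timd4, under the 1.66 of Folr2, and 5.72 for Retnla. For Lyve1 and Mrc1 the difference with the pseudocount of 0.1 was -1.95 and -0.55, again with no overlap between the ages. For these 6 genes the exact 2-sided permutation p was 0.1, the smallest that 3 against 3 libraries can give, so a p under 0.05 was out of reach. The reference mean itself was 1.04 higher at 4 months, whereas a typical gene changed little (median -0.14). A gene with equal levels at both ages would thus be lower on this scale, as Mrc1 was despite its own log2 fold change of 0.49. How often genes outside the members lacked overlap on this scale was not tested.

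**Figure D3:**
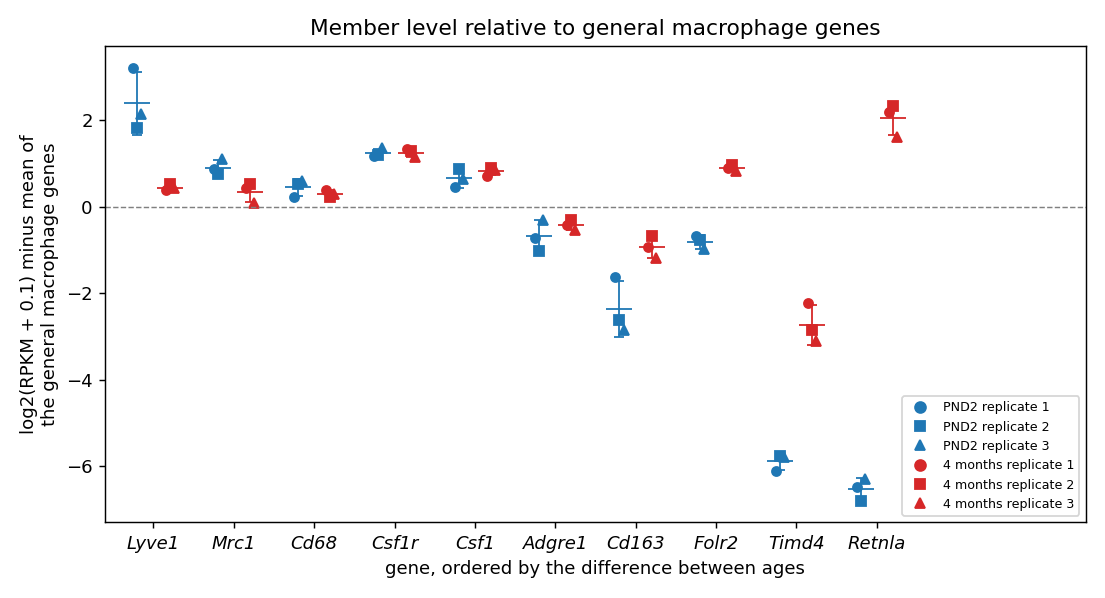
Level of each member minus the mean of 20 general macrophage genes of the same library, in log2(RPKM + 0.1), with the mean and SD of each age and genes ordered by the difference. Csf1r stays at 1.24 and 1.25, Lyve1 goes from 2.397 to 0.44, and Folr2 crosses from -0.81 to 0.90.

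Further genes used to mark resident macrophages changed unevenly. Of 18 in that list, 11 rose, 1 fell and 6 did not pass, with a median log2 fold change of 1.503. The lectin Cd209f had no read in any PND2 library and 6.61, 6.90 and 7.03 RPKM at 4 months, at least 113-fold higher when 3 reads per library are taken as the limit of a count of 0. The C-type lectins Mgl2 and Clec10a rose by 7.14 and 4.75 on the log2 scale. Igf1, a growth factor that many stromal cells also make, fell by 0.82. Members of the list that did not pass included the scavenger receptor Stab1 (-0.32) and the chemokine Pf4 (0.05), which was at 52.9 to 58.6 RPKM at PND2 and 50.1 to 65.9 RPKM at 4 months.

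The genes of monocyte-derived, CCR2-positive macrophages were examined in the same way. Of 14, 13 were tested, 9 rose, 2 fell and 2 did not pass. The median log2 fold change was 2.21, above the 1.503 of the resident list and the 1.25 of the 10 members. The class II antigen presentation genes Cd74, H2-Eb1 and H2-Ab1 had the lowest adjusted p and rose by 6.33, 5.60 and 5.16. Which cells these transcripts came from was not tested. Of the dendritic cell list 3 of 7 genes rose and 0 fell, and of the T and B cell list 3 of 8 tested rose and 0 fell. Ccr2 itself was at 0.802, 0.492 and 0.251 RPKM at PND2 and 3.25, 2.20 and 2.30 RPKM at 4 months. Fn1, fibronectin, which valve interstitial cells also express, fell by 1.48, and Plac8 fell by 1.51.

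Among 20 other genes of CSF1R signalling and of the macrophage lineage, 9 rose, none fell and 10 of the 19 tested did not pass, with a median of 0.68; limma at an unadjusted p under 0.05 and voom both gave 0 lower as well. The nuclear receptor Nr1h3 and the factor Cebpa rose by 2.33 and 3.49. Spi1, which encodes PU.1, was at 2.44, 3.19 and 3.23 RPKM at PND2 and at 8.15, 4.71 and 6.63 RPKM at 4 months. The adaptor gene Grb2 (-0.14) and the inositol phosphatase gene Inpp5d (0.27) did not pass.

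The IL-4 and STAT6 list was examined beside Retnla. Of its 20 genes 18 were tested, 9 rose, 1 fell and 8 did not pass, with a median of 0.75. Mgl2 and Clec10a, also in the resident list, and the chemokine Ccl24 (3.20) had the lowest adjusted p of the genes that rose. Cd209a, a lectin gene, rose by 4.02, and Cish, a feedback inhibitor of cytokine signalling, fell by 1.23. Of the cytokines in the list, Il33 rose by 1.70, from 13.6, 10.2 and 8.48 RPKM at PND2 to 39.5, 33.8 and 30.8 RPKM at 4 months, whereas Il4 and Il13 were low at both ages. Il4 was at 0.975 to 1.48 RPKM at PND2 and 0.851 to 1.46 RPKM at 4 months, and Il13 stayed under 0.1 RPKM in all 6 libraries. Arg1, another classical target, was under 0.6 RPKM in every library and gave a log2 fold change of 0.16 ± 0.57 (SE; limma adjusted p = 0.856).

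Adipocyte genes, like Retnla, were higher at 4 months. All 7 rose, with a median of 7.73, and their summed level went from 4.74 to 6.75 RPKM at PND2 to 304 to 1306 RPKM at 4 months; Cidec and Lep had no read at PND2. Adult replicate 2 stood apart, with Adipoq at 34.2, 134 and 41.2 RPKM and Cfd at 217, 955 and 172 RPKM in the 3 adult libraries. Retnla did not have its highest value in that library, nor did Folr2, Timd4 or Csf1r. Without adult replicate 2 the log2 fold change of Retnla was 9.55 (adjusted p = 0.00012). Retn, the resistin gene of the same family and a product of fat cells in mice, followed the adipocyte genes: it had no read at PND2 and 4.83, 35.4 and 4.44 RPKM at 4 months, at least 254-fold higher at a limit of 3 reads per library. The part of fat in the level of Retnla was not tested.

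**Figure D4:**
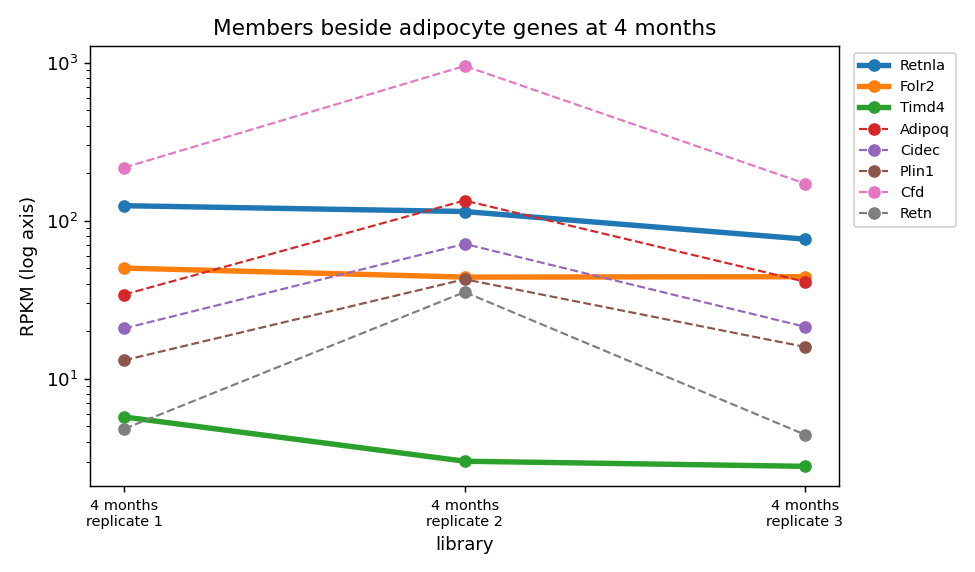
RPKM (log axis) in the 3 libraries of 4 months for Retnla, Folr2 and Timd4 (thick lines) and for the adipocyte genes Adipoq, Cidec, Plin1 and Cfd and the resistin gene Retn (dashed). The dashed genes peak in replicate 2, while Retnla is at 125, 115 and 76.6 RPKM.

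The profile of Csf1r over the 6 libraries was most like those of Mpst, Tapbpl, Pnrc1, Vipr2 and Atp2a3 among 13743 other protein-coding genes with a mean of at least 1 RPKM, with root mean square differences of 0.06 to 0.07 on the centred log2 scale. The genes most like Retnla were 2210407C18Rik, Cidec, Adipoq, Inmt and Ces1d, at larger distances of 0.61 to 1.14. Cidec and Adipoq are adipocyte genes described above, which, unlike Retnla, were highest in adult replicate 2. With Retnla close to absent at PND2, its distances rest largely on the size of the difference between the ages.

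Relatives of the members were examined as well. Of 17 genes of the same families, 13 were tested, 7 rose, 3 fell and 3 did not pass. Retnlg, a resistin-like gene of neutrophils, was at 1.98, 1.51 and 1.24 RPKM at PND2 and at most 0.264 RPKM at 4 months. Folr1, the epithelial folate receptor, fell by 1.44 while Folr2 rose by 2.75. Havcr2, which encodes TIM-3, rose by 1.55, and Timd2 had no read in any library. Adgre4 and Adgre5, of the adhesion receptor family of Adgre1, rose by 1.84 and 0.32. Ly75 and Pla2r1, of the mannose receptor family, rose by 0.98 and 1.22, and Retn, which encodes resistin, rose by 6.53. Mrc2, the fibroblast relative of the mannose receptor, differed by 0.01. Lamp1, a relative of Cd68, rose by 0.77, close to the 0.89 of Cd68, and the receptor kinase gene Kit fell by 1.23.

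The ligand side of Cd163 was looked at through 14 genes of hemoglobin and iron handling, of which 6 rose, 2 fell and 6 did not pass (median 0.17). Haptoglobin, Hp, was at 0.783, 0.878 and 0.560 RPKM at PND2 and at 59.9, 72.6 and 50.1 RPKM at 4 months, a log2 fold change of 6.18 ± 0.21 (SE; limma adjusted p = 1.25e-05). Ceruloplasmin, Cp, rose by 2.26, and hepcidin, Hamp, was at 52.7, 19.2 and 13.7 RPKM at 4 months with reads in 1 PND2 library. The transferrin receptor Tfrc fell by 1.69 and the iron exporter Slc40a1 by 1.09. The heme oxygenase Hmox1 did not pass (-0.64, limma adjusted p = 0.0584). The erythroid list, a sign of blood in the sample, gave no limma call among 5 genes tested (1 lower at an unadjusted p under 0.05, and 0 by voom) and summed to 1865 to 2598 RPKM at PND2 and 750 to 2158 RPKM at 4 months.

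At the level of exons, 102 of 156 tested member exons were called higher and 1 lower, where over 335276 exons of all genes 8.27% were called higher and 12.8% lower. Annotated exons overlap one another in part, so they share reads and are not independent. All 23 tested exons of Csf1r, all 5 of Folr2 and all 4 of Retnla were called higher, and 8 of 9 in Timd4. In Mrc1 all 32 exons had a positive log2 fold change and 3 were called. In Lyve1 all 6 were negative, from -0.80 to -1.25, and 1 was called lower. The gene-level values of these members thus did not rest on a single exon.

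**Figure D5:**
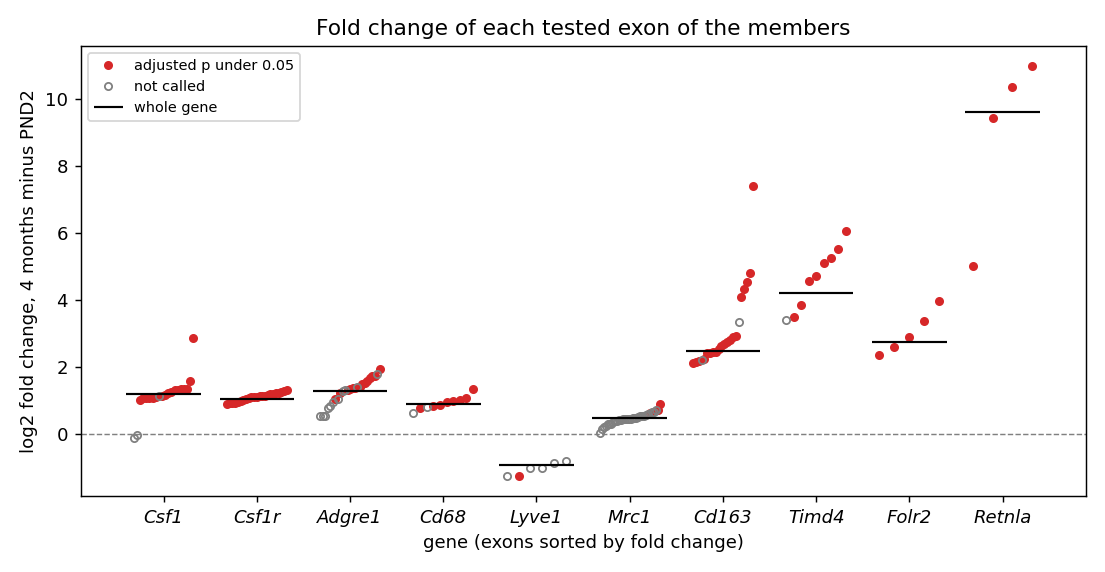
Log2 fold change (4 months minus PND2) of each tested exon of the 10 genes, filled where the limma adjusted p was under 0.05, with a bar at the value of the whole gene. Most exons lie near their gene's bar, and the short last exon of Csf1 (2.85) and a 30 base exon of Cd163 (7.42) stand above it. The first exon of Retnla (5.00) lies below its bar (9.62).

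Csf1 had 1 exon that rose beyond the rest, singled out after its values were seen. It is an alternative last exon of 246 bases at chr3:107745595-107745840, which GENCODE M21 places in the 3′ UTR of transcript Csf1-203. The stop codon lies upstream, in an exon that Csf1-203 shares with Csf1-201 and Csf1-202. Those transcripts end in a last exon of 2098 bases at chr3:107741048-107743145. The short exon had 21, 11 and 9 reads at PND2 and 147, 44 and 105 reads at 4 months, a log2 fold change of 2.85 ± 0.423 (SE; limma adjusted p = 0.00371 over all exons), whereas the long one rose by 1.12 ± 0.152. Of the RPKM of both last exons, the short one held 9.13%, 5.31% and 4.79% at PND2 and 24.0%, 12.7% and 21.1% at 4 months. The ages did not overlap, with a mean difference of 12.8 percentage points, and the exact 2-sided permutation p was 0.1, the smallest that 3 against 3 allows. The exon at chr3:107756989-107757128 was the opposite case, with 32, 18 and 11 reads at PND2 and 13, 17 and 16 reads at 4 months (log2 fold change -0.13 ± 0.446 SE; limma adjusted p = 0.86).

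Cd163 held a further exon of this kind, also singled out after its values were seen. Its exon of 30 bases at chr6:124326116-124326145 had no read at PND2 and 19, 10 and 18 reads at 4 months. Set against the level of the whole gene over pooled reads, the exon stood at a ratio of 1.33 at 4 months and, taking 3 reads as the limit of a count of 0, at no more than 0.390 at PND2. The whole gene had 1402 reads at PND2, so few reads would fall on an exon of this length, and the fold of the exon against that of the gene was not tested.

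Other cell types of the sample moved as well. The valve interstitial list was high throughout, with a sum of 6564 to 7250 RPKM at PND2 and 8032 to 10140 RPKM at 4 months (2 of 8 rose and 5 fell). Heart muscle genes were abundant at both ages, with a sum of 12582 to 15719 RPKM at PND2 and 5066 to 7912 RPKM at 4 months, and 3 of 7 fell. Neutrophil genes fell in all 6 tested, from a sum of 27.0 to 33.2 RPKM to 0.588 to 1.57 RPKM, and 4 of 6 mast cell genes fell. The dendritic cell list summed to 5.61 to 7.06 RPKM at PND2 and 11.0 to 12.4 RPKM at 4 months (3 of 7 rose), and the T and B cell list to 1.90 to 3.34 RPKM and 2.99 to 7.27 RPKM (3 of 8 tested rose). The part of these shifts in the levels of the 10 genes was not tested.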

How the data were processed

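Total RNA from pooled aortic valves was sequenced as paired 50 base reads from a stranded mRNA kit. Per the study's methods the authors aligned with TopHat2 2.1.0 to mm10 and counted reads per gene and exon with easyRNASeq on an Ensembl annotation; R 3.2.2 is in the submitters' processing notes. The authors deposited RPKM for genes and for exons, that is, values scaled to the library total and exonic length. From these values whole reads were recovered for 100% of entries (tolerance 0.01 read).

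Genes and exons were kept when 3 or more libraries reached 0.1 RPKM, and compared on log2(RPKM + 0.1) by limma 3.58.1 (R 4.3.3; trended, 2-sided, Benjamini-Hochberg over all features tested, threshold 0.05), with no covariate. Fold changes are on that scale and understate those of low genes. Intervals and the limit of 3 reads for a count of 0 cover counting error only. On simulated data over 25903 genes for this comparison, limma recovered 40 of 100 planted log2 changes of 1 and 86 of 100 of 2. It made 9 false calls. Far fewer genes were changed there than the 3810 and 5463 called in the data, so these counts do not give the sensitivity in the data.

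The 10 members and the lists were chosen with earlier results of these data known. List genes were named as the 3 with the lowest adjusted p in each direction, any called against the rest and those a cell type check rests on; Ccr2, Il34, Spi1, Grb2, Inpp5d, Stab1, Pf4, Il4, Il13, Arg1, Hmox1, Timd2, Mrc2, Il33, Cd209a, Adgre4, Adgre5, Ly75, Pla2r1, C1qa, C1qb and C1qc were added for their roles after the values were seen. A gene that the rule would name is not reported here. Itgam has 2 entries in the table and the more abundant entry was kept. Genes like Csf1r and Retnla were the 5 nearest profiles each. Alternatives were other pseudocounts, filters, scalings, the unequal-variance test, a floor of 10 reads, voom, the replicate number as a block and each library left out.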

Additional observations from a re-analysis of the deposited data

How the results depend on the processing

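In the 17 alternatives tried for each member no direction reversed. The 8 calls held in all of them except under the unequal-variance test, which left 6 by losing Adgre1 and Cd163; Mrc1 was added by median scaling, quantile normalization, voom and the omission of adult replicate 3. Leaving out each library in turn gave 8 to 9 members called higher and 0 to 1 lower (Lyve1, without PND2 replicate 2), 74 to 78 list genes higher against 78, and 29 to 38 lower against 37. Exons of members called higher ranged from 73 to 92 against 102, and those called lower from 0 to 4 against 1; the latter count was 2 with a filter at 1 RPKM, 2 with a pseudocount of 1 and 2 with the replicate block. Members that gained on the general macrophage genes numbered 4 to 5 in all alternatives. The fold change of Retnla ranged from 6.65 to 11.61 and that of Timd4 from 2.08 to 5.14 with the pseudocount, floor or unit, since their PND2 levels rest on few reads. The short last exon share of Csf1 differed by 10.5 to 16.1 percentage points when single libraries were left out, a check added after seeing the data.

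Same-numbered libraries had correlations of 0.04, -0.06 and -0.16 in their deviations from the group means, so they share only a number. With the replicate block 8 members were called higher and 0 lower, 76 list genes higher and 35 lower, and 94 member exons higher; over all genes 3004 were higher and 4163 lower, against 3810 and 5463.

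Median scaling moved the members' fold changes by up to 0.12 (Retnla from 9.62 to 9.69, Timd4 from 4.20 to 4.29) and the share of higher calls over all genes from 41.1% to 52.3%. The unequal-variance test called 1466 genes higher and 1942 lower, and voom on recovered reads 4194 and 5385. Without PND2 replicate 3, 3503 genes were called lower.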
